A study of Homo sapiens with 6 samples.

Results

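A set of 10 transcription and splicing regulators known to set the epithelial or mesenchymal state was followed in HuCCT1, an established cell line from a human bile duct cancer (cholangiocarcinoma). They are the repressors ZEB1, ZEB2, SNAI1 and SNAI2 and the epithelial-state factors GRHL2, OVOL1, OVOL2, ESRP1, ESRP2 and ELF3. They were chosen as the rows whose symbol equals one of these names, and all 10 were found among the 26485 rows of the gene count table. The names were chosen with earlier results of these data known. Polyadenylated RNA had been sequenced from AQP1 KO clone 22 (3 libraries) and from WT clone 1 (3 libraries). The titles of both give a CRISPR clone, the knockout was made with CRISPR/Cas9, both were grown in DMEM-F12 with serum, and AQP1 encodes the water channel aquaporin-1. Each genotype is 1 clone, so genotype and clone cannot be told apart. Nothing in the labels makes libraries a, b and c separate cultures, so the spread behind each p-value is that of these libraries and may be technical.

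During the epithelial-mesenchymal transition, cells give up junctions and keratins and gain motility and matrix genes. ZEB and SNAI proteins are zinc finger factors that bind E2 boxes, short DNA elements, and repress epithelial genes such as CDH1, which encodes E-cadherin. GRHL2, a grainyhead factor, and the OVOL zinc finger factors are known to repress ZEB1 or keep epithelial genes active, ESRP1 and ESRP2 are splicing factors that enforce epithelial exon choices, and ELF3 is an epithelial ETS factor. The microRNAs of the miR-200 family, together with miR-205, are known to repress ZEB1 and ZEB2, and the ZEB proteins repress miR-200 genes in turn.

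Libraries held 36925338 to 41724447 counts, and levels are given as CPM, counts of a gene for every 1000000 in that library. A floor of 3 counts equals 0.0719 to 0.0812 CPM. The targeted gene AQP1 had 10, 7 and 7 counts in KO libraries a, b and c and 2, 8 and 10 counts in WT libraries a, b and c. No difference was detectable at this depth (log2 fold change 0.27, SE 0.63, edgeR quasi-likelihood test, Benjamini-Hochberg (BH) adjusted p = 0.715), so the genotype labels could not be checked from them. The bile duct keratin gene KRT7 stood at 1613 ± 12.5 CPM in KO and 1751 ± 38.3 CPM in WT libraries (SD, n = 3 each). The 7 bile duct markers summed to 2694.1 to 2763.9 CPM in KO and 6316.2 to 6359.8 CPM in WT libraries. Of these, 6 were called lower, where 37.2% of all tested genes were. Of markers of other cell types, the immune gene PTPRC and the hepatocyte gene TTR had 0 counts in every library. Others on the same lists were present and called higher. These were the immune genes CD68 (206.7 CPM in KO and 109.1 CPM in WT) and CD14 (1.46 CPM in KO and 0.509 CPM in WT). The hepatocyte gene SERPINA1 was another (70.9 CPM in KO and 53.5 CPM in WT). The 7 fibroblast markers summed to 35.5 to 38.3 CPM in KO and 15.8 to 18.0 CPM in WT libraries. Of the 5 tested, 4 were called higher, where 37.1% of all tested genes were. COL1A2, not tested, had 0 counts in KO. The part of these markers in the results was not tested. In bulk RNA, a change in the share of cells that express a gene and a change in RNA per cell cannot be told apart.

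The mature miR-200 and miR-205 sequences are shown with their seeds, bases 2 to 8, in capitals, because matches to these seeds were counted in the 10 genes. The sequences are those of RefSeq on GRCh38.p14, and the family falls into a pair of seed groups beside miR-205.
hsa-miR-200b-3p: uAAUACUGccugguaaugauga
hsa-miR-200c-3p: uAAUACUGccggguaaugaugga
hsa-miR-429: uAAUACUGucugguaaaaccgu
hsa-miR-200a-3p: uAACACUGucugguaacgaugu
hsa-miR-141-3p: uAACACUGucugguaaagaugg
hsa-miR-205-5p: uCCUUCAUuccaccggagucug

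In the longest annotated 3′ untranslated region of ZEB1 (GENCODE 29; 2549 bases), 6 matches to the miR-200b/200c/429 seed (CAGTATT) were found, 3 to the miR-200a/141 seed (CAGTGTT) and 1 to the miR-205 seed (ATGAAGG). ZEB2 had 5, 4 and 0 of these in 5370 bases. The regions of the SNAI genes are shorter: SNAI1 had no match in 830 bases and SNAI2 had 1 CAGTATT in 1203. Of the epithelial-state factors, ESRP1 had 1 CAGTATT and 1 CAGTGTT, GRHL2 1 CAGTGTT and ELF3 1 ATGAAGG, and OVOL1, OVOL2 and ESRP2 had none. Of 19132 genes with such a region, 16.0% held at least 1 CAGTATT, and 3 genes, ZEB1 among them, held as many as ZEB1. CAGTGTT was in 18.3% of them, with 200 genes at the count of ZEB1 or above and 58 at that of ZEB2 or above. ATGAAGG was in 11.7%, and all 2243 of those genes held as many as ZEB1. Counts were not adjusted for length. For each ZEB gene 1 match to either miR-200 seed is printed on the strand of the gene, with the seed match in capitals. The ZEB1 sites lie at chr10:31527623-31527649 and chr10:31528036-31528062 and the ZEB2 sites at chr2:144389043-144389069 and chr2:144389227-144389253 (minus strand), all in GRCh38 and in the 3′ untranslated region.
ZEB1, CAGTATT: tttatcttatCAGTATTatcactctta
ZEB1, CAGTGTT: tcatcagaatCAGTGTTtgtgattgtg
ZEB2, CAGTATT: taccatacatCAGTATTtttattatta
ZEB2, CAGTGTT: aaattttgtaCAGTGTTaaggcctaaa
A match is a description of letters and was not tested as a binding site.

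The libraries hold polyadenylated RNA and do not measure mature microRNAs. The loci themselves had few counts. MIR429 had 1, 2 and 1 counts in KO and 5, 3 and 9 in WT libraries, MIR200B 0, 2 and 2 in KO and 1, 2 and 0 in WT, MIR141 0, 1 and 0 in KO and 0, 2 and 0 in WT, MIR200A 0, 0 and 2 in KO and 0 in WT, and MIR34A 2, 0 and 0 in KO and 0, 3 and 0 in WT. MIR200C and MIR205 had 0 counts in all 6. MIR205HG, the host gene of miR-205, was the 1 locus of the 8 found in the table that could be tested. It had 2, 0 and 2 counts in KO and 22, 31 and 31 in WT libraries and fell (log2 fold change -4.26, SE 0.64, edgeR quasi-likelihood test, BH-adjusted p = 3.84e-05). It met the filter on low counts only through the WT libraries.

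The 4 repressors were higher in the knockout clone, with a wide gap in size between the ZEB and the SNAI genes. ZEB1 stood at 82.3, 84.9 and 83.5 CPM in KO libraries a, b and c and at 7.23, 5.71 and 5.82 CPM in WT libraries a, b and c. All 3 KO libraries lay within a few CPM of each other and far above every WT library. The rise was 13.4-fold (log2 fold change 3.69, SE 0.080, edgeR quasi-likelihood test, BH-adjusted p = 8.73e-14). Of 14405 genes tested, 2.84% had a fold change as high as that of ZEB1. ZEB2, the second member of the family, stood at 6.79, 7.14 and 7.64 CPM in KO and 0.419, 0.726 and 0.431 CPM in WT libraries, from 17, 30 and 18 counts in WT. It rose 13.7-fold (log2 fold change 3.71, SE 0.21, same test, BH-adjusted p = 1.91e-09). The ratio of ZEB1 to ZEB2 per exon length was 25.2, 24.7 and 22.7 in KO and 35.8, 16.3 and 28.0 in WT libraries, so it overlapped between the clones.

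SNAI1, the Snail repressor, stood at 5.07, 5.38 and 6.61 CPM in KO and 3.13, 3.73 and 4.29 CPM in WT libraries. The groups did not overlap, but the gap between the lowest KO and the highest WT library was smaller than the range within either group. The rise was 1.53-fold in mean CPM (log2 fold change 0.56, SE 0.16, edgeR quasi-likelihood test, BH-adjusted p = 0.00694). SNAI2, the Slug repressor, stood at 71.5, 69.6 and 69.5 CPM in KO and 50.3, 49.5 and 49.5 CPM in WT libraries. It rose 1.41-fold (log2 fold change 0.44, SE 0.042, BH-adjusted p = 3.38e-07 in the same edgeR test). Tested against a change of 1.5-fold with glmTreat in edgeR, neither SNAI1 (BH-adjusted p = 0.717) nor SNAI2 (adjusted p = 1) passed, while ZEB1 and ZEB2 did.

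**Figure D1:**
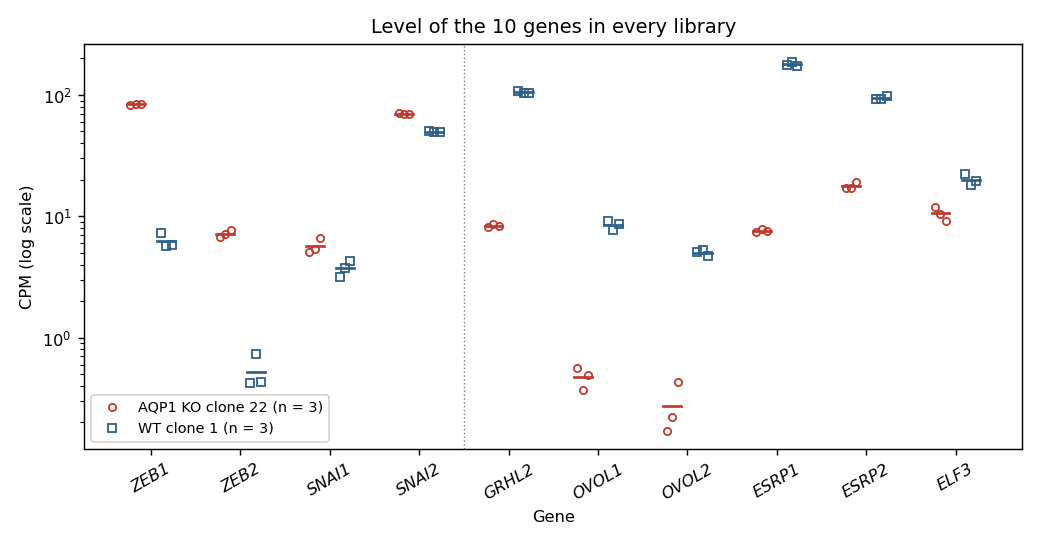
CPM on a log axis for each of the 10 genes, with AQP1 KO clone 22 (red circles) left of WT clone 1 (blue squares), 1 point per library and the mean of 3 libraries as a bar. The 4 repressors left of the dotted line are higher in KO and the 6 epithelial-state factors right of it are lower, and the groups do not overlap for any of the 10.

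The 6 epithelial-state factors were all lower in the knockout clone. GRHL2 stood at 8.11, 8.58 and 8.26 CPM in KO and 107.7, 103.4 and 103.8 CPM in WT libraries. This was a fall to 0.0792 of the WT level (log2 fold change -3.71, SE 0.052, edgeR quasi-likelihood test, BH-adjusted p = 1.22e-15). Only 1.02% of genes tested had a fold change as low. OVOL1 stood at 0.563, 0.367 and 0.488 CPM in KO and 9.10, 7.65 and 8.63 CPM in WT libraries (log2 fold change -4.21, SE 0.19, BH-adjusted p = 1.54e-10 in the same edgeR test). OVOL2 had 7, 9 and 16 counts in KO and 204, 218 and 196 counts in WT libraries, which is 0.172, 0.220 and 0.433 CPM in KO and 5.03, 5.28 and 4.70 CPM in WT. Both OVOL genes were thus under 1 CPM in every KO library and above it in every WT library. OVOL2 fell (log2 fold change -4.24, SE 0.28, BH-adjusted p = 7.64e-09 in the same edgeR test), but only 1 KO library reached the filter level of 0.245 CPM, so it was tested through its WT libraries. The other 9 genes met the filter in both groups.

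ESRP1 stood at 7.42, 7.90 and 7.50 CPM in KO and 177.9, 185.5 and 173.8 CPM in WT libraries. Its log2 fold change, the lowest of the 10 but within the spread of that of OVOL2, was -4.61 (SE 0.042, edgeR quasi-likelihood test, BH-adjusted p = 1.75e-17), and 0.562% of genes tested fell as far. Without KO library c the order turned, with -4.58 for ESRP1 and -4.69 for OVOL2. Its paralog ESRP2 stood at 17.2, 17.1 and 19.3 CPM in KO and 92.4, 92.7 and 97.7 CPM in WT libraries (log2 fold change -2.45, SE 0.056, BH-adjusted p = 1.31e-13 in the same edgeR test). The ratio of ESRP1 to ESRP2 per exon length was 0.427, 0.459 and 0.386 in KO and 1.91, 1.99 and 1.76 in WT libraries, so the more abundant of the pair differed between the clones. ELF3 changed least of the 6. It stood at 12.0, 10.5 and 9.15 CPM in KO and 22.2, 18.2 and 19.6 CPM in WT libraries, a level 0.528 of that in WT (log2 fold change -0.97, SE 0.10, BH-adjusted p = 1.17e-06 in the same edgeR test).

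In all, 4 of the 10 genes were called higher, where 37.1% of all tested genes were, and 6 were called lower, where 37.2% were; 74.4% of all tested genes were called in either direction. The groups did not overlap in any of the 10, against 77.3% of all tested genes (41.8% higher and 35.5% lower). A call or a lack of overlap was thus common in these libraries, and the sizes were less so. A called fall of at least 2-fold was seen in 5 of the 10, against 9.05% of tested genes. A called rise of at least 2-fold was seen in 2 of the 10, against 13.7%.

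Levels of different genes were compared as CPM per kilobase of exon, with the union of GENCODE 29 exons as length, which may differ from the annotation the authors counted on. In the KO libraries SNAI2 was highest (28.9 ± 0.455), followed by ZEB1 (13.0 ± 0.205), ESRP2 (4.65 ± 0.321) and SNAI1 (3.37 ± 0.483), and none of these overlapped its neighbour in the order (SD, n = 3). ESRP1 (1.97 ± 0.066), ELF3 (1.71 ± 0.233) and GRHL2 (1.57 ± 0.046) followed, and each overlapped the next. ZEB2 (0.538 ± 0.032) was above OVOL2 (0.177 ± 0.090) and OVOL1 (0.141 ± 0.030), which overlapped. In the WT libraries the order began with ESRP1 (46.3 ± 1.53), ESRP2 (24.6 ± 0.786), SNAI2 (20.5 ± 0.204) and GRHL2 (19.8 ± 0.448). ELF3 (3.24 ± 0.333) and OVOL2 (3.22 ± 0.187) overlapped, as did OVOL1 (2.52 ± 0.221) and SNAI1 (2.20 ± 0.343), and ZEB1 (0.972 ± 0.131) and ZEB2 (0.039 ± 0.013) came last. SNAI2 was therefore an abundant transcript in both clones, whereas ZEB1 held rank 2 in KO and rank 9 in WT.

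Summed per exon length, the 4 repressors made up 81.8, 81.9 and 81.5% of the 10 genes in KO and 19.2, 19.0 and 19.5% in WT libraries. Within the repressors, SNAI2 gave 64.4, 62.9 and 62.1% in KO and 87.3, 86.6 and 85.4% in WT libraries, and ZEB1 gave 28, 29 and 28.1% in KO and 4.73, 3.77 and 3.79% in WT libraries. The ratio of ZEB1 to GRHL2 per exon length was 8.36, 8.15 and 8.32 in KO and 0.0552, 0.0455 and 0.0462 in WT libraries. These sums and ratios were given no test, since they combine genes that were already tested one by one.

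**Figure D2:**
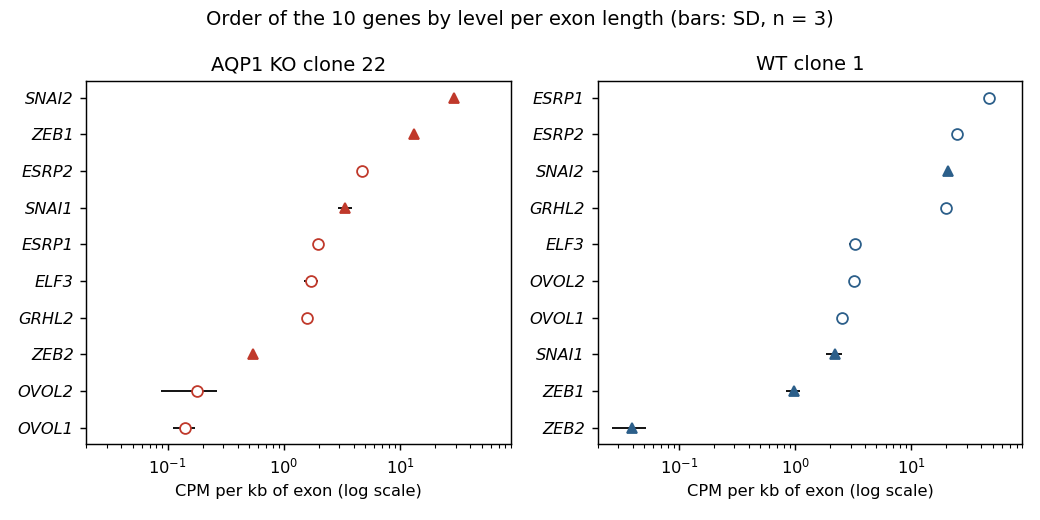
Mean CPM per kilobase of exon on a log axis, with the 10 genes ordered from highest to lowest in AQP1 KO clone 22 (left) and WT clone 1 (right), and bars of 1 SD (n = 3). Filled triangles are ZEB and SNAI genes and open circles the epithelial-state factors; ZEB1 is at rank 2 in KO and rank 9 in WT, while SNAI2 is at rank 1 in KO and rank 3 in WT.

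Each gene was set beside the other tested genes that start within 5 Mb of it on GRCh38. ZEB1 (chromosome 10, 31318417 to 31529804) lay among 32 tested genes with a median log2 fold change of 0.00, of which 1, the decoy receptor gene BAMBI, rose further. ZEB2 (chromosome 2, 144384081 to 144520119) lay among 9 with a median of -0.30, and none rose as far. Both ZEB rises thus stood well above the median of the surrounding genes. ZEB1 was still within the range of its neighbours (-3.85 to 4.08), and ZEB2 had only 9. SNAI1 (chromosome 20, 49982980 to 49988886) lay among 65 with a median of -0.13, 14 of which had a higher fold change. SNAI2 (chromosome 8, 48917598 to 48921429) lay among 12 with a median of 0.02 and 2 higher ones, CEBPD and SPIDR, and within 10 Mb 18 of 52 neighbours were higher (median 0.18).

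GRHL2 (chromosome 8, 101492439 to 101681200) and ESRP1 (chromosome 8, 94641174 to 94707466) start 6.85 Mb apart. Around GRHL2 26 of 39 tested neighbours were called higher and 5 lower, with a median of 0.40, and GRHL2 was below all 39. Around ESRP1 the median of 44 neighbours was 0.14, and 1 of them, C8orf88, was lower than ESRP1. Of these 44, 21 were called higher and 13 lower. Over all tested genes, 37.1% were called higher and 37.2% lower. GRHL2 and ESRP1 thus fell among neighbours more often called higher than lower. Their windows overlap and share genes such as SDC2 and CPQ, so they are not separate stretches. OVOL1 (chromosome 11, 65787063 to 65797214) was below all 230 tested neighbours (median -0.43), of which 148 were called lower and 34 higher. OVOL2 (chromosome 20, 18024152 to 18059188) was below all 31 (median -0.23), of which 18 were called lower and 11 higher. ELF3 (chromosome 1, 202010587 to 202017183) also lay among neighbours more often called lower than higher. The median of 82 was -0.46, 48 were called lower and 18 higher, and 22 had a lower fold change than ELF3.

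ESRP2 (chromosome 16, 68229033 to 68236127) starts 0.508 Mb from CDH1, the E-cadherin gene. The median of its 110 tested neighbours was 0.11, and 5 had a lower fold change than ESRP2. These were MARVELD3, ELMO3, CDH1, CES4A and CDH3, named after their values were seen. MARVELD3 is a tight junction gene and CDH3 encodes P-cadherin.

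**Figure D3:**
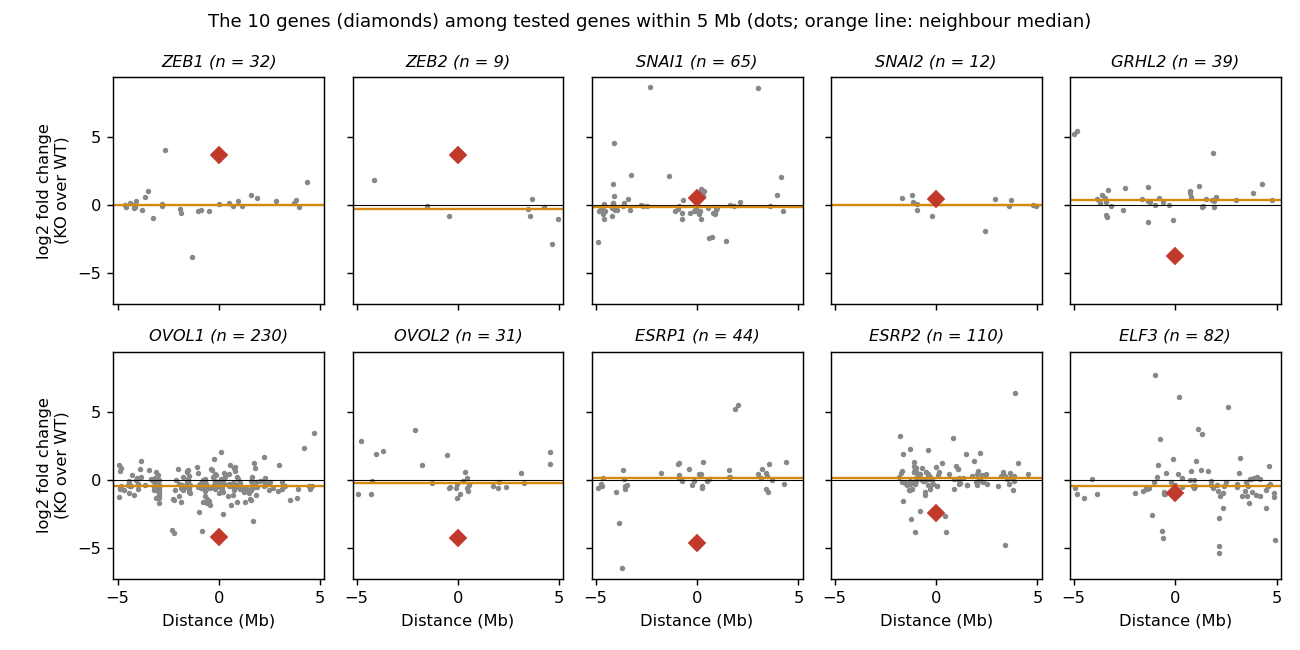
Log2 fold change (KO over WT) against distance in Mb from the start of each of the 10 genes, for tested genes within 5 Mb (grey dots), the gene itself (red diamond) and the neighbour median (orange line), with the number of neighbours in each title. GRHL2, OVOL1 and OVOL2 are below every neighbour and ZEB2 is above every neighbour. ZEB1, ESRP1, ESRP2, SNAI1, SNAI2 and ELF3 are within the range of theirs.

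Of the 10 genes, ELF3, ZEB1 and ZEB2 were matched in the RefSeq promoter table, with 250 bases before and 50 after each start. ZEB1 had 7 listed starts. Promoters were searched on both strands for the E2 box (CACCTG or CAGGTG), for AACCNGTT, a grainyhead motif, and for CCGTTA, an OVOL motif. No promoter of these genes held more than 1 of the 3 kinds, so no matches overlapped between motifs. The E2 box was in 20.6% of all 35116 promoters, AACCNGTT in 1.73% and CCGTTA in 3.07%. ELF3 held 1 E2 box, and the ZEB1 start printed here held 3, the most of its 7 starts. Both are printed with E2 boxes in capitals, since they show an epithelial-state factor and a repressor with the element in its own promoter. The ELF3 promoter is chr1:202010337-202010636 on the plus strand and the ZEB1 promoter chr10:31318966-31319265 on the plus strand, GRCh38.p14.
ELF3: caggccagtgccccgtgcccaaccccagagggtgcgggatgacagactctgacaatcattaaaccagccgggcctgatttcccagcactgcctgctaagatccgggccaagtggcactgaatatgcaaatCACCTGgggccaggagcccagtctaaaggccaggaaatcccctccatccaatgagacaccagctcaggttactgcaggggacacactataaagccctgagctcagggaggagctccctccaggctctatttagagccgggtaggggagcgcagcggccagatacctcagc
ZEB1: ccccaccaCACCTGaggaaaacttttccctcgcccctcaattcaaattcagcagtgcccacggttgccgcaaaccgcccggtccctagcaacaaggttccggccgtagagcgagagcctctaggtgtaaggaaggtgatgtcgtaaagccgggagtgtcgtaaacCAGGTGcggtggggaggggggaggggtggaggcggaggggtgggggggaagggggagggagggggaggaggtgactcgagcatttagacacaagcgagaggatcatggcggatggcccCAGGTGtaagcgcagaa

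Another ZEB1 start held 1 E2 box, and another held 1 CCGTTA, as did the ZEB2 promoter. Among 26 epithelial genes known as repressed by ZEB or SNAI factors or activated by GRHL2, 13 had a promoter in the table. Of these, 10 (76.9%) had an E2 box at 1 or more starts, against 24.1% of 27305 genes. At the first listed start the shares were 61.5% and 20.6%. The list was drawn from knowledge of such targets, so this share is not independent of the motif.

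Those 26 epithelial targets fell almost throughout. This list and those that follow were chosen with earlier results of these data known. Their counts describe these libraries and are not independent support. Over all tested genes, 37.1% were called higher and 37.2% lower. All 26 were tested, 24 were called lower, 1 higher and 1 not, with a median log2 fold change of -2.71 against 0.01 over all tested genes. PRSS22, a serine protease gene among the 24, met the filter only through the WT libraries. ST14, a membrane serine protease gene, stood at 9.99 ± 0.980 CPM in KO and 407.5 ± 3.48 CPM in WT (SD, n = 3 each; log2 fold change -5.41, edgeR quasi-likelihood test, BH-adjusted p = 1.34e-17). MAL2, which serves apical transport, stood at 19.1 ± 2.24 CPM in KO and 716.0 ± 12.4 CPM in WT (log2 fold change -5.28). CDH1 stood at 15.0 ± 1.28 CPM in KO and 202.3 ± 4.52 CPM in WT (log2 fold change -3.80). The gene that rose was MUC1, a membrane mucin, with 34.9 ± 5.97 CPM in KO and 25.8 ± 2.15 CPM in WT (log2 fold change 0.38, BH-adjusted p = 0.0037 in the same edgeR test). OCLN, the occludin gene, was not called at 0.587 ± 0.794 CPM in KO and 0.504 ± 0.282 CPM in WT. It had 0, 61 and 10 counts in KO and 30, 24 and 8 in WT libraries. In neither group did every library reach the filter level, so its change is poorly measured. Of 15 mesenchymal genes, 14 were tested, of which 11 were called higher and 1 lower, with a median of 1.25. TNC, the tenascin C gene (38.8 ± 1.76 CPM in KO and 0.155 ± 0.088 CPM in WT), and SPARC, a matrix glycoprotein gene (6.61 ± 0.942 CPM in KO and 0.211 ± 0.057 CPM in WT), rose furthest and met the filter only through the KO libraries. The matrix protease gene MMP14 was the one that fell (112.4 ± 3.47 CPM in KO and 127.7 ± 5.18 CPM in WT).

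Other epithelial-state factors mostly fell with GRHL2 and the OVOL genes. Of 15, 13 were tested, 11 were called lower and 2 higher, with a median of -1.41. GRHL3 and TP63, both among the 11, met the filter only through the WT libraries. GRHL1, a paralog of GRHL2, stood at 1.43 ± 0.434 CPM in KO and 12.1 ± 0.405 CPM in WT (SD, n = 3 each; log2 fold change -3.11, edgeR quasi-likelihood test, BH-adjusted p = 1.63e-09). The 2 that rose were FOXA2, an endodermal factor (56.4 ± 2.11 CPM in KO and 24.4 ± 1.58 CPM in WT), and KLF4, a Krüppel-like factor of epithelia (11.9 ± 1.18 CPM in KO and 5.53 ± 0.351 CPM in WT). EHF, an ETS factor close to ELF3 and named after its values were seen, stood at 53.1 ± 0.610 CPM in KO and 347.6 ± 3.74 CPM in WT (log2 fold change -2.77).

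Other transcription factors of the transition showed no common direction. Of 15, 10 were tested, 4 were called higher and 4 lower, with a median of 0.21. Over all tested genes the shares were 37.1% higher and 37.2% lower. TWIST1, TWIST2 and GSC, named after their values were seen, had 0 counts in all 6 libraries. PRRX2, a paired-like homeobox gene, had 70 counts in KO and 2 in WT, a ratio of 36.5 with an exact 95% counting interval of 9.72 to 307, and met the filter only through the KO libraries. TCF4, which encodes an E protein, fell (0.924 ± 0.176 CPM in KO and 2.89 ± 0.211 CPM in WT, edgeR quasi-likelihood test, BH-adjusted p = 1.38e-05). SNAI3, the third Snail gene, was called lower with groups that overlapped (0.351 ± 0.126 CPM in KO and 0.698 ± 0.211 CPM in WT, BH-adjusted p = 0.0399 in the same edgeR test), and it met the filter only through the WT libraries. The call of SNAI3 ended at an adjusted p of 0.01, which left 3 lower calls on this list. With DESeq2, with no filter on low counts and in other alternatives given below, the list likewise had 3 lower calls.

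Transcripts of proteins through which ZEB and SNAI factors act changed by less than the ZEB genes. Of 16 corepressor genes, 3 were called higher and 10 lower, with a median of -0.18. For this list and the next, the shares over all tested genes were 37.1% higher and 37.2% lower. The falls were led by KDM1A, the histone demethylase LSD1 (120.3 ± 0.899 CPM in KO and 201.8 ± 3.87 CPM in WT, log2 fold change -0.80), and EZH2, a Polycomb methyltransferase (55.7 ± 1.79 CPM in KO and 86.1 ± 1.15 CPM in WT). The rises were led by LOXL2, a lysyl oxidase known to stabilise SNAI1 (8.84 ± 1.21 CPM in KO and 3.16 ± 0.254 CPM in WT, log2 fold change 1.43), and SIN3A, a corepressor scaffold (210.5 ± 7.54 CPM in KO and 117.6 ± 0.833 CPM in WT). Of 13 genes that govern turnover of these proteins, 7 were called higher and 6 lower, with a median of 0.10. FBXO45, a ubiquitin ligase component that targets SNAI proteins, fell (33.9 ± 1.36 CPM in KO and 85.1 ± 1.15 CPM in WT), as did GSK3B, the kinase that marks SNAI1 for degradation (100.6 ± 2.74 CPM in KO and 160.2 ± 2.33 CPM in WT). PRKD1, a kinase that phosphorylates SNAI1, rose (5.48 ± 0.410 CPM in KO and 1.42 ± 0.258 CPM in WT). USP51, a deubiquitinase, had 39 counts in KO and 0 in WT, at least 13.5-fold higher with 3 counts over the WT group as floor. USP51 met the filter only through the KO libraries and had to differ. The others named passed edgeR's test, and transcript counts do not measure protein turnover.

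Genes with exons known to be regulated by ESRP proteins were measured as whole genes, and the counts do not show exon use. Of 14, 6 were called higher and 6 lower, with a median of 0.00. Here and for the splicing factors below, the shares over all tested genes were 37.1% higher and 37.2% lower. FGFR2, a growth factor receptor gene, stood at 2.23 ± 0.581 CPM in KO and 0.106 ± 0.039 CPM in WT and met the filter only through the KO libraries. CLSTN1, a calsyntenin gene, rose (300.6 ± 2.01 CPM in KO and 217.0 ± 8.10 CPM in WT), CTNND1, the p120-catenin gene, fell (11.4 ± 0.641 CPM in KO and 23.2 ± 1.04 CPM in WT), and CD44, a hyaluronan receptor gene, fell (2185 ± 29.4 CPM in KO and 2706 ± 20.1 CPM in WT). Of 12 other splicing factors of the transition, 11 were tested, 4 were called higher and 4 lower, with a median of 0.02. MBNL2 (162.5 ± 2.44 CPM in KO and 85.3 ± 1.38 CPM in WT) and QKI (137.3 ± 2.58 CPM in KO and 78.7 ± 1.93 CPM in WT), both regulators of mesenchymal splicing, rose furthest. The largest falls there, CELF1 (log2 fold change -0.24) and PTBP1 (log2 fold change -0.23), were small.

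**Figure D4:**
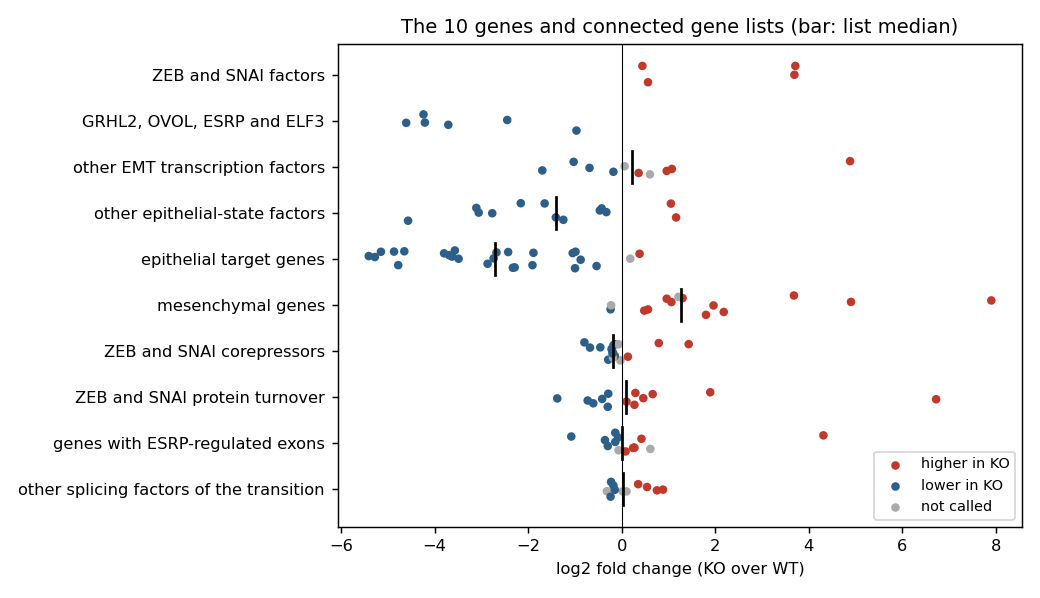
Log2 fold change (KO over WT) of each tested gene, in rows for the ZEB and SNAI factors, the epithelial-state factors and 8 connected lists, with genes called higher in red, lower in blue and not called in grey, and a bar at the median of each connected list. The epithelial targets lie mostly left of 0 (median -2.71) and the mesenchymal genes mostly right of it (median 1.25). The medians of the splicing and corepressor lists lie close to 0. Single genes there lie further out on both sides, such as FGFR2 (4.31), LOXL2 (1.43), CTNND1 (-1.08) and KDM1A (-0.80).

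Antisense genes were checked because no source used here gives the strand setting with which reads were counted. ZEB1-AS1, which starts beside ZEB1 on the other strand, had 152, 172 and 135 counts in KO and 162, 116 and 144 counts in WT libraries and was not called (log2 fold change 0.12, SE 0.17, edgeR quasi-likelihood test, BH-adjusted p = 0.536). ZEB2-AS1 had 0 counts in all libraries, and OVOL1-AS1 had 0 in KO and 0, 6 and 0 in WT. These counts were small beside the 3359, 3473 and 3082 counts of ZEB1 in KO, but not beside its 293, 236 and 243 counts in WT libraries, so the WT level of ZEB1 is the less certain.

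Among the tested genes whose pattern was most like that of ZEB1, by Pearson's r of log2 CPM (prior count 2) over the 6 libraries, were PTPRG (r = 0.99993) and ADGRG2 (r = 0.99986). PTPRG had 926 counts in KO and 1 in WT, a ratio of 964 with an exact 95% counting interval of 173 to 3.81e+04, and met the filter only through the KO libraries. ADGRG2 stood at 17.6 ± 0.208 CPM in KO and 1.03 ± 0.199 CPM in WT. Among those most like GRHL2 were PKP2 (r = 0.99995) and SCD (r = 0.99994). PKP2, a desmosomal gene, stood at 114.4 ± 0.138 CPM in KO and 203.3 ± 0.483 CPM in WT. SCD, a desaturase gene, stood at 158.0 ± 2.14 CPM in KO and 418.6 ± 2.29 CPM in WT. With 2 groups of 3 libraries such r values are common: 1417 genes had r over 0.99 with ZEB1 and 1717 with GRHL2.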

How the data were processed

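The authors deposited 1 table of raw read counts per gene symbol, for polyadenylated RNA from stranded TruSeq libraries per the labels. The submitters' processing notes list HISAT2, Trimmomatic 0.33, edgeR and FastQC and the build hg38; counting program, strand setting and annotation: not given in the sources used here. The test was edgeR's quasi-likelihood test (version 4.0.16, R 4.3.3) of AQP1 KO over WT (TMM, filterByExpr, 6 libraries, no covariate), with BH adjustment over 14405 genes and a threshold of 0.05. The filter left out 12080 rows. The SE of a log2 fold change is its size over the root of the F statistic. Within groups, no pair of libraries agreed within sampling noise (chi-square over its degrees of freedom, 4.18 to 7.6). Coordinates and names came from RefSeq (23752 rows matched by current symbol and 1540 by an older one); PATJ is listed under the older name INADL. Floors and exact 95% intervals reflect counting error alone. The 10 genes and all lists were chosen with earlier results of these data known. Named genes were the 10, AQP1, CDH1 and, per list, the 2 largest rises and falls that passed, all microRNA and antisense rows with counts, and the 3 genes most like ZEB1 and GRHL2. Alternatives were RLE factors, library totals, no filter, at least 1 CPM in 3 libraries, DESeq2 1.42.0, limma-voom (limma 3.58.1), the letters as a block, glmTreat, an adjusted p of 0.01, each library left out and other neighbour windows. The steps were tested on simulated data. Some genes that the naming rule selects are not reported here.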

Additional observations from a re-analysis of the deposited data

How the results depend on the processing

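Over 15 alternatives the 10 genes kept their direction, and 148 of 150 fold changes kept their side of the threshold. The exceptions were SNAI1 (log2 fold change 0.56, adjusted p = 0.717) and SNAI2 (0.44, adjusted p = 1) under edgeR's glmTreat, which asks for more than a 1.5-fold change. By its construction that test calls fewer genes: 4354 of all genes, against 10711, and 2 of the 10 as higher, ZEB1 and ZEB2. It called 1 of the other EMT factors lower, against 4 as reported and 3 in 9 other alternatives, 7 other epithelial-state factors lower, 0 epithelial targets higher, 0 mesenchymal genes lower, 2 corepressors lower, 2 turnover genes higher and 2 lower, 1 ESRP-exon gene higher and 1 lower, and 2 splicing factors higher and 0 lower. With at least 1 CPM in 3 libraries, 0 microRNA loci were called lower, because MIR205HG was no longer tested.

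Whether the letters a, b and c pair the libraries was not settled. Correlations of deviations were 0.058, -0.019 and 0.008 for same letters and -0.05 to 0.041 for different letters. The pair of a libraries had the highest value, while KO b correlated best with WT c. With the replicate block 10599 genes were called. Neighbour medians within 2 Mb were -0.34 for SNAI1, 0.16 for SNAI2, -0.44 for OVOL2, 0.28 for ESRP1, -0.29 for ELF3 and -0.07 for ZEB1, against -0.13, 0.02, -0.23, 0.14, -0.46 and 0.00 within 5 Mb. Within 10 Mb, a window added after seeing the data, they were -0.69 for ZEB2 (-0.30 within 5 Mb), 0.18 for SNAI2 and 0.08 for ZEB1. Low counts limit OVOL1 and OVOL2 in KO, ZEB2 in WT, and AQP1 and the microRNA loci in both.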

Other observations

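Markers of bile duct cells fell along with the epithelial-state factors. EPCAM, an epithelial adhesion gene, stood at 40.7 ± 1.41 CPM in KO and 484.4 ± 6.24 CPM in WT (SD, n = 3 each; log2 fold change -3.63, edgeR quasi-likelihood test, BH-adjusted p = 1.44e-17), and the keratin gene KRT19 at 93.5 ± 4.59 CPM in KO and 755.7 ± 13.8 CPM in WT (log2 fold change -3.07). CFTR, a chloride channel gene, was not called at 1.94 ± 0.190 CPM in KO and 1.83 ± 0.081 CPM in WT.

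Of 7 fibroblast markers, 5 were tested and 4 called higher, where 37.1% of all tested genes were. Among the 4 was DCN, a proteoglycan gene that met the filter only through the KO libraries. PDGFRA, a growth factor receptor gene, stood at 6.66 ± 1.05 CPM in KO and 0.712 ± 0.080 CPM in WT, and LUM, a matrix proteoglycan gene, at 17.4 ± 0.675 CPM in KO and 5.33 ± 0.616 CPM in WT. COL1A1, a fibrillar collagen gene, was not called at 9.07 ± 2.10 CPM in KO and 9.89 ± 0.589 CPM in WT. The 4 immune markers summed to 204 to 211 CPM in KO and 107 to 113 CPM in WT, most of it from the lysosomal gene CD68. The 4 hepatocyte markers summed to 68.5 to 74.7 CPM in KO and 52.0 to 55.8 CPM in WT, most of it from SERPINA1, and the 4 endothelial markers to 1.91 to 2.89 CPM in KO and 1.70 to 2.12 CPM in WT.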
